A study of Mus musculus with 11 samples.

Results

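Transcript levels of 45 genes of glutathione metabolism and of the NRF2 antioxidant response were examined by RNA sequencing of airway tissue from mice with experimental asthma exacerbation. The genes were listed by name and role, with earlier results of these data known, and all 45 were found among the 21899 genes listed. They comprise genes of glutathione synthesis, turnover and reduction, glutathione peroxidases, glutathione transferases, and NRF2 with its inhibitor and some of its targets. The 11 libraries came from wild-type mice, which the methods of the study describe as young adult male BALB/c animals. The PBS group (3 libraries, PBS 1 to 3) was not sensitised and received PBS only. The OVA/LPS/Vehicle group (4 libraries, numbered 12, 34, 56 and 78) was sensitised to ovalbumin (OVA) in alum, challenged through the nose with OVA, given lipopolysaccharide (LPS) through the nose on separate days, and treated with vehicle through the trachea. The OVA/LPS/GGsTop group (4 libraries, numbered 1 to 4) had the same exposures and received GGsTop, an inhibitor of γ-glutamyl transferase, in place of vehicle. Per the methods, treatment began on the day of the last LPS dose, so GGsTop was given to airways already exposed to allergen and LPS. The sources do not state whether PBS mice were dosed through the trachea, whether a library such as OVA/LPS/Vehicle 12 pools several mice, or whether each library is a separate animal, so p-values measure the spread between these libraries only.

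Glutathione is a tripeptide of glutamate, cysteine and glycine that cells use to reduce peroxides and to tag reactive compounds for export. It is made by glutamate-cysteine ligase and glutathione synthetase, is oxidised by peroxidases, is regenerated by glutathione reductase, and is broken down outside cells by γ-glutamyl transferase, the enzyme that GGsTop blocks. NRF2, encoded by Nfe2l2, is a transcription factor held in check by KEAP1 that binds antioxidant response elements and drives many of these genes, and the lining fluid of the airway is known to be rich in glutathione.

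Total fragments implied by the deposited FPKM values (fragments per kilobase of exon, scaled to the size of the library) ranged from 14513135 to 18632383 per library. PBS 3 stood apart in the dependence of its values on transcript GC content, with a slope of 0.533 log2 units per 10 percentage points, against 0.0484 and 0.0611 in the other PBS libraries, −0.261 to −0.19 in OVA/LPS/Vehicle and 0.0464 to 0.108 in OVA/LPS/GGsTop. Because the ranges of OVA/LPS/Vehicle and the other groups did not overlap, each comparison is also given after correction for GC content. Mitochondrial transcripts took 2.08 to 10.1% of FPKM in PBS, 14.5 to 19.5% in OVA/LPS/Vehicle and 7.40 to 11.1% in OVA/LPS/GGsTop, and their part in the results was not tested. The labels name the tissue as trachea, whereas the methods describe dissected airway without it. The 6 club cell markers summed to 35102 to 41979 FPKM in PBS, 38715 to 59279.9 in OVA/LPS/Vehicle and 47622 to 54601 in OVA/LPS/GGsTop. The 5 alveolar markers were also high (9450.1 to 14477, 4997 to 8323 and 4286 to 10977 FPKM), while the 4 cartilage markers summed to 0.470 to 45.8, 4.55 to 15.7 and 0.256 to 45.6 FPKM. In whole tissue, fewer cells of a type and less RNA per cell cannot be told apart.

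Antioxidant response elements were sought in the promoters because NRF2 and its targets are among the genes measured. The core letters TGACNNNGC, or GCNNNGTCA on the other strand, which can overlap the AP-1 motif TGACTCA, were searched in the 250 bases before each gene's start in RefSeq (GRCm38.p6). Of the 45 genes, 38 had a promoter entry, and 8 of these (21.1%) held a match (Gclm, Ggct, Gsta3, Gstm5, Gstm7, Mgst1, Txnrd1 and Nfe2l2), against 11.5% of all 27025 genes with an entry. Some genes have several promoters, and counted by promoter 8 of 53 (15.1%) held a match, against 10.2% of all 32851. The windows of the 5 genes that were also called between OVA/LPS/Vehicle and PBS are shown 5′ to 3′ on the gene's strand, with the match in capitals. Among these 5 genes, 4 were higher in OVA/LPS/Vehicle and Gsta3 was lower, against 15.9% higher and 22.1% lower of all genes tested. Ggct, Gstm7 and Txnrd1, which also held a match, were not called. The calls of Gclm and Mgst1 were lost after GC correction, and those of Gclm, Gstm5 and Mgst1 without PBS 3. Because the 5 genes were chosen by their calls, their directions are not read as a result about the motif. A match is a description of the letters and not a measured binding site.
Gclm (chr3:122245393-122245461, plus strand): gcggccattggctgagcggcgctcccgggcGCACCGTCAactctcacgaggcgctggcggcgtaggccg
Gsta3 (chr1:21240434-21240502, plus strand): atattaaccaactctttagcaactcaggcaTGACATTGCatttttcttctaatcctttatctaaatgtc
Gstm5 (chr3:107895782-107895850, plus strand): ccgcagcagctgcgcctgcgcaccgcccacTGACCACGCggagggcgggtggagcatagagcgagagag
Mgst1 (chr6:138140441-138140509, plus strand): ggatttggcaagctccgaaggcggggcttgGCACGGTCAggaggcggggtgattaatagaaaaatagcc
Nfe2l2 (chr2:75704865-75704913, minus strand): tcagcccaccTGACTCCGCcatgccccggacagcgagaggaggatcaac

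The genes covered a wide range of levels. Gpx3, encoding the secreted glutathione peroxidase, had the highest mean over the 11 libraries (589 FPKM, rank 31 of 21899), followed by Gstm1 (314 FPKM, rank 72) and Gpx1 (197 FPKM, rank 131). Mean levels were at least 100 FPKM for 7 genes and under 1 FPKM for 5. Of the 45, 44 reached the mean of 0.5 FPKM required for testing, and Gstm3 did not.

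**Figure D1:**
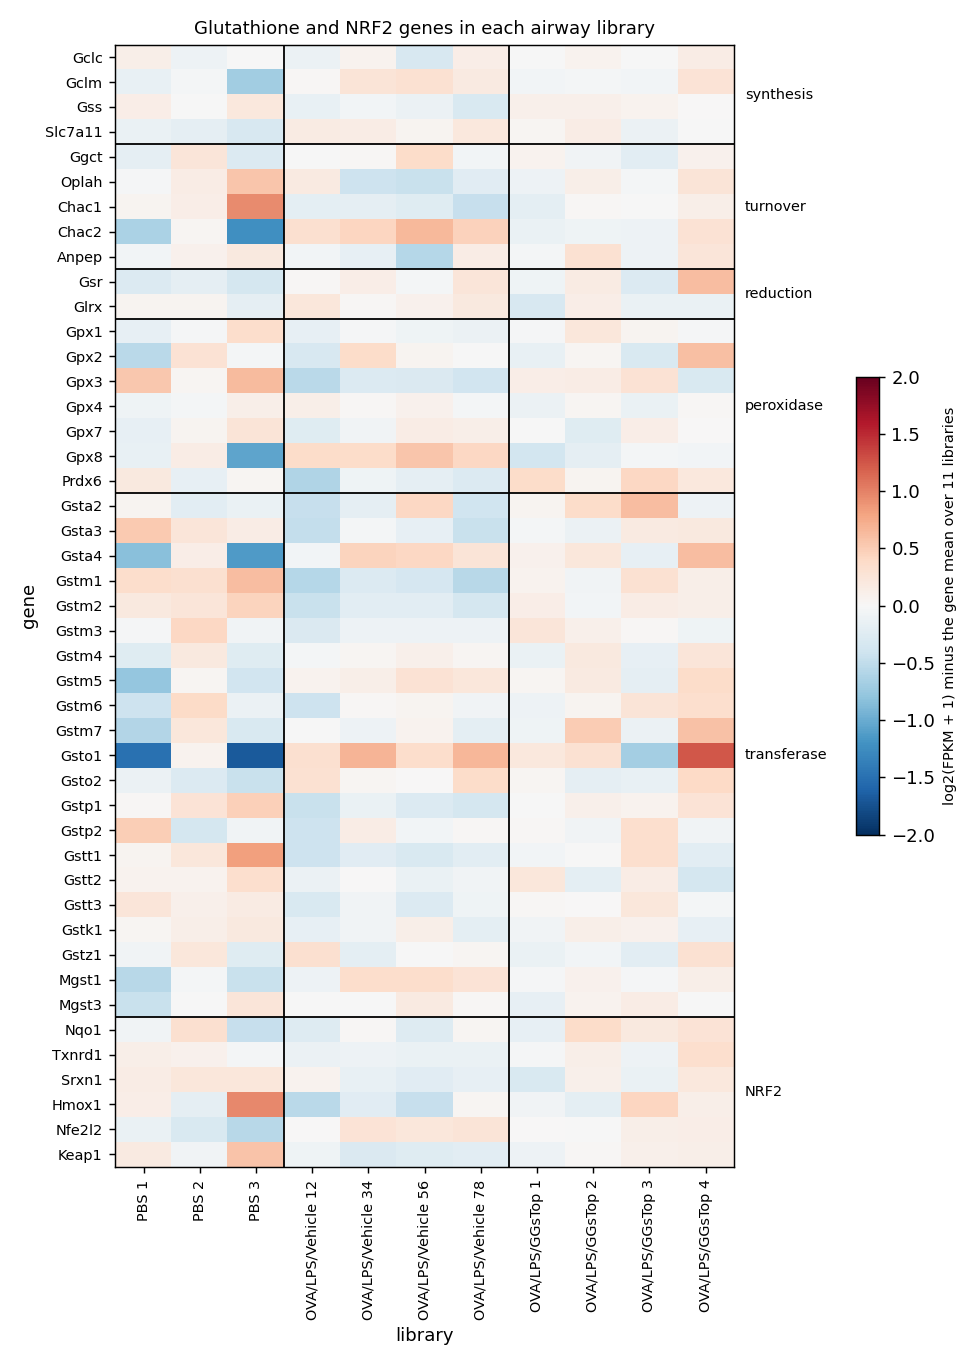
Levels of the 45 genes (rows, ordered by role) in the 11 libraries (columns), as log2(FPKM + 1) minus the gene's mean over all libraries, with red above and blue below that mean. Gstm1 and Gstm2 are above their means in the 3 PBS libraries and below in the 4 OVA/LPS/Vehicle libraries, and PBS 3 has the lowest value of Chac2, Gpx8 and Gsto1.

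Exposure to OVA and LPS was examined first by comparing OVA/LPS/Vehicle with PBS. Of 44 genes tested, 10 were higher and 10 lower in OVA/LPS/Vehicle, against 15.9% higher and 22.1% lower of all 14004 genes tested, and the share called (45.5%) lay near the 38.0% found over all genes. The libraries of the groups did not overlap for 9 genes on the higher side and 13 on the lower, against 18.7% and 25.4% of all genes. The median log2 fold change was −0.06 over the 44 genes and −0.01 over all genes. The 10 higher genes were Gclm, Slc7a11, Chac2, Gpx8, Gsta4, Gstm5, Gsto1, Gsto2, Mgst1 and Nfe2l2, and the 10 lower genes were Gss, Chac1, Gpx3, Gsta3, Gstm1, Gstm2, Gstp1, Gstt1, Gstt3 and Keap1. After GC correction 6 were higher (Gpx4, Gsta4, Gstm5, Gsto1, Gsto2 and Nfe2l2) and 4 lower (Gss, Gsta3, Gstm1 and Gstm2), against 8.13% and 13.3% of all genes (21.5% in either direction). Without PBS 3, 3 were higher (Chac2, Gpx8 and Nfe2l2) and 6 lower (Gpx3, Gsta3, Gstm1, Gstm2, Gstp1 and Gstt3), against 1175 and 1889 of all 14004 genes. With every library scaled to the same FPKM total, the split was 4 higher and 16 lower, against 1232 and 4570 of all genes. Fold changes below are log2 differences of FPKM + 1 ± SE, adjusted p-values are from limma over all genes tested, and values per library are FPKM in the order of the library numbers.

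**Figure D2:**
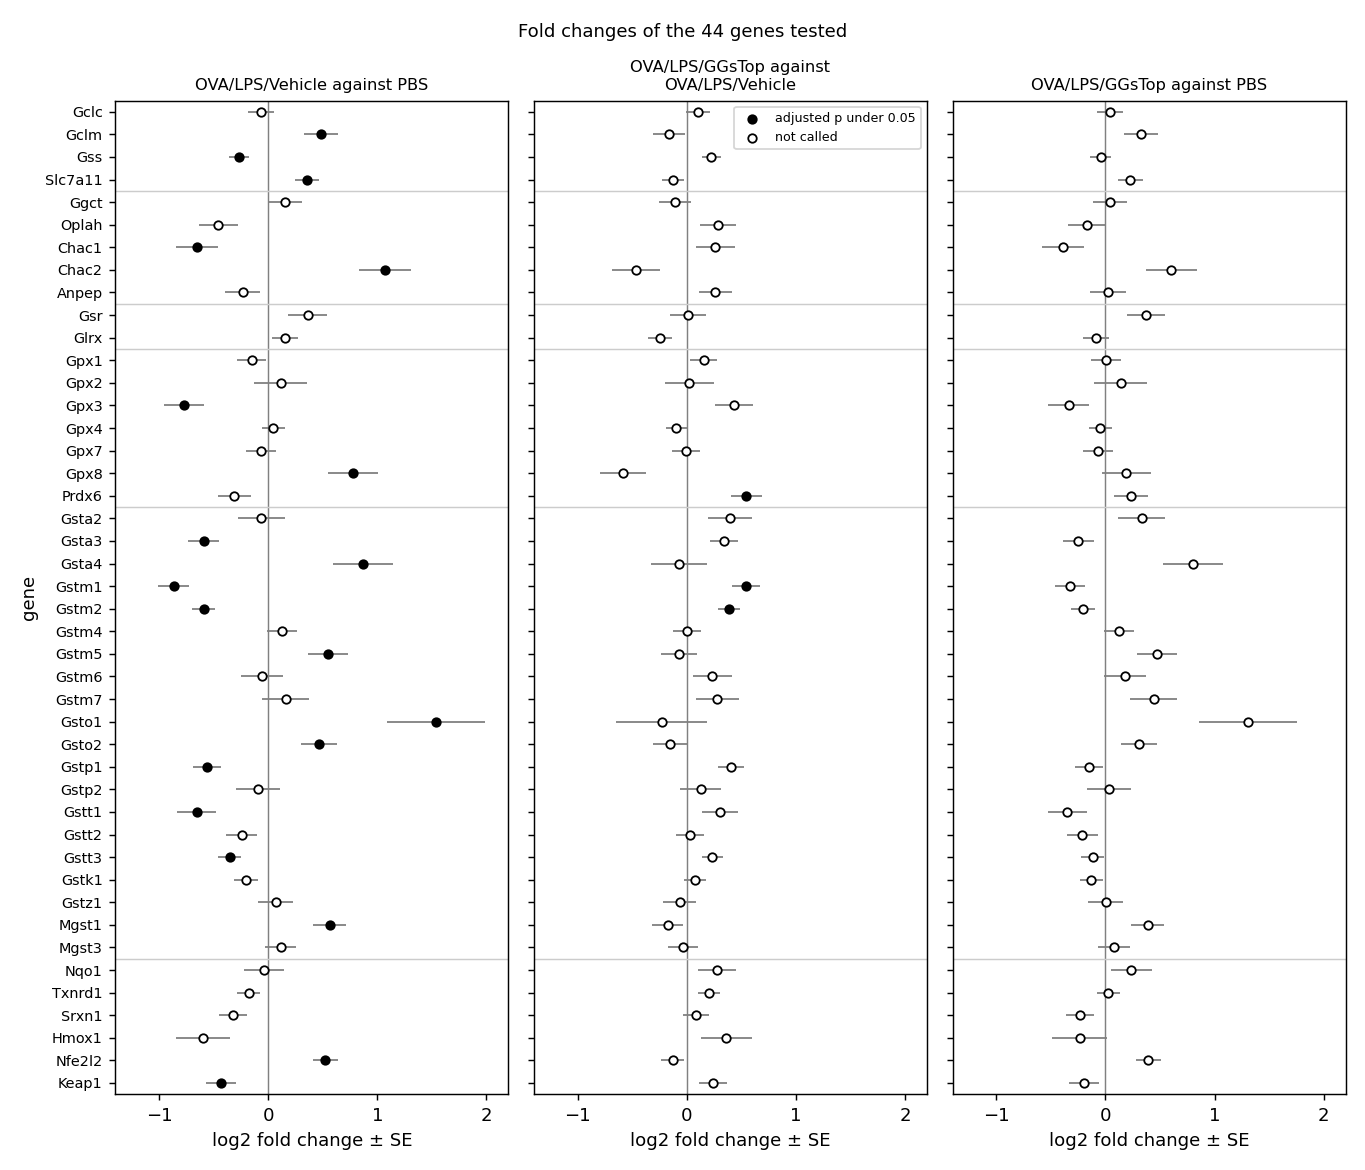
Log2 fold changes of FPKM + 1 (points) with their SE (bars) for the 44 genes tested, ordered by role, in the 3 comparisons, with filled points for adjusted p under 0.05. Called genes lie on both sides of 0 for OVA/LPS/Vehicle against PBS (10 and 10), only to the right for GGsTop relative to vehicle (3), and there are none in the last panel.

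Among the 4 genes of glutathione synthesis, 2 were higher and 1 lower in OVA/LPS/Vehicle than in PBS, against 15.9% and 22.1% of all genes. Gclm, the regulatory subunit of glutamate-cysteine ligase, measured 8.70, 9.48 and 5.65 FPKM in PBS, 9.88, 11.8, 12.3 and 11.2 in OVA/LPS/Vehicle and 9.30, 9.496, 9.36 and 11.95 in OVA/LPS/GGsTop. All 4 OVA/LPS/Vehicle values lay above the PBS values, at a log2 fold change of 0.48 ± 0.16 (adjusted p = 0.0315). The GC correction moved it to 0.09 (adjusted p = 0.573). Slc7a11, the cystine importer that supplies cysteine, was low at 0.410, 0.361 and 0.235 FPKM in PBS, 0.737, 0.713, 0.599 and 0.791 in OVA/LPS/Vehicle and 0.587, 0.708, 0.428 and 0.544 in OVA/LPS/GGsTop. Its OVA/LPS/Vehicle values lay above PBS without overlap, with a log2 fold change of 0.36 ± 0.11 (adjusted p = 0.027). Gss, glutathione synthetase, went the other way, at 6.39, 5.68 and 6.72 FPKM in PBS, 5.05, 5.47, 5.20 and 4.42 in OVA/LPS/Vehicle and 6.16, 6.22, 6.02 and 5.73 in OVA/LPS/GGsTop, with a log2 fold change of −0.27 ± 0.09 (adjusted p = 0.044). Gclc, the catalytic subunit of the ligase and the most abundant of the 4, showed overlapping values of 50.3, 43.3 and 46.2 FPKM in PBS, 42.8, 48.5, 36.8 and 51.0 in OVA/LPS/Vehicle and 46.1, 48.7, 45.9 and 51.2 in OVA/LPS/GGsTop and a log2 fold change of −0.06 ± 0.12 (adjusted p = 0.687).

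Of the 5 genes of glutathione turnover, 1 was higher and 1 lower, against the same 15.9% and 22.1% of all genes. CHAC1 and CHAC2 both cleave glutathione inside cells, and their transcripts were called in opposite directions, though neither was called after GC correction, at log2 fold changes of −0.29 (adjusted p = 0.139) for Chac1 and 0.49 (adjusted p = 0.066) for Chac2. Chac2 measured 3.23, 5.69 and 1.796 FPKM in PBS, 7.21, 7.79, 9.21 and 7.96 in OVA/LPS/Vehicle and 4.9997, 5.13, 5.11 and 7.04 in OVA/LPS/GGsTop, with all OVA/LPS/Vehicle values above PBS and a log2 fold change of 1.07 ± 0.24 (adjusted p = 0.00776). Chac1 measured 1.70, 1.85 and 3.97 FPKM in PBS, 1.26, 1.28, 1.19 and 0.877 in OVA/LPS/Vehicle and 1.26, 1.64, 1.59 and 1.82 in OVA/LPS/GGsTop, with all OVA/LPS/Vehicle values below PBS and a log2 fold change of −0.65 ± 0.19 (adjusted p = 0.0223). Its PBS 3 value was the highest of the 11 libraries. Anpep, an aminopeptidase that cuts the dipeptide left by γ-glutamyl transferase, was the most abundant of the 5 at 15.4, 17.1 and 18.5 FPKM in PBS, 15.3, 14.2, 10.51 and 17.9 in OVA/LPS/Vehicle and 15.6, 20.1, 14.8 and 19.1 in OVA/LPS/GGsTop and was not called (−0.24, adjusted p = 0.27). Ggct, which handles γ-glutamyl amino acids, and Oplah, which returns oxoproline to glutamate, had log2 fold changes of 0.15 and −0.46 and were not called (adjusted p = 0.451 and 0.0591).

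Neither gene of glutathione reduction was called. Gsr, glutathione reductase, measured 18.9, 20.2 and 17.8 FPKM in PBS, 23.5, 25.4, 22.5 and 27.5 in OVA/LPS/Vehicle and 21.7, 25.8, 19.0 and 35.8 in OVA/LPS/GGsTop. Its OVA/LPS/Vehicle values lay above those of PBS, but the log2 fold change of 0.36 ± 0.18 (adjusted p = 0.12) did not pass the threshold. Glrx, a glutaredoxin that uses glutathione to reduce protein disulphides, measured 6.68, 6.67 and 5.55 FPKM in PBS, 7.70, 6.53, 6.87 and 7.44 in OVA/LPS/Vehicle and 4.91, 7.14, 5.73 and 5.76 in OVA/LPS/GGsTop, with overlapping groups and a log2 fold change of 0.16 ± 0.12 (adjusted p = 0.305).

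Among the 7 peroxidases, Gpx8 was higher and Gpx3 lower. Gpx3 measured 827, 586 and 885 FPKM in PBS, 394, 471, 466 and 438 in OVA/LPS/Vehicle and 625, 635, 696 and 461 in OVA/LPS/GGsTop, or 766 ± 159 in PBS (SD, n = 3) and 442 ± 35.4 in OVA/LPS/Vehicle (SD, n = 4). Every OVA/LPS/Vehicle value lay below every PBS value, at a log2 fold change of −0.77 ± 0.19 (adjusted p = 0.0109). Gpx8, a peroxidase of the endoplasmic reticulum, measured 35.0, 43.6 and 18.2 FPKM in PBS, 50.8, 50.8, 57.5 and 52.1 in OVA/LPS/Vehicle and 30.2, 34.3, 37.8 and 37.5 in OVA/LPS/GGsTop and rose by a log2 fold change of 0.78 ± 0.23 (adjusted p = 0.0211). PBS 3 had the lowest Gpx8 value. The abundant cytosolic Gpx1 and the lipid peroxide-reducing Gpx4 had log2 fold changes of −0.15 and 0.05 (adjusted p = 0.384 and 0.74). The GC correction moved Gpx4 to 0.44 (adjusted p = 0.0154). Gpx2, Gpx7 and Prdx6 were not called, with log2 fold changes of 0.12, −0.06 and −0.31.

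The glutathione transferases, which join glutathione to reactive compounds, are the largest role group. Of 20 tested, 5 were higher and 6 lower, against 15.9% and 22.1% of all genes. After GC correction 4 of the 20 were higher and 3 lower, against 8.13% and 13.3%. Gstm1 was the most abundant, at 389, 379 and 468 FPKM in PBS, 204, 251, 239.6 and 207 in OVA/LPS/Vehicle and 320.4, 291, 376 and 330.0 in OVA/LPS/GGsTop, or 412 ± 48.5 in PBS (SD, n = 3) and 225 ± 23.6 in OVA/LPS/Vehicle (SD, n = 4). It had the smallest adjusted p of the 44 genes, with a log2 fold change of −0.87 ± 0.14 (adjusted p = 0.00365), and every OVA/LPS/Vehicle value lay below every PBS value. Gstm2, its neighbour on chromosome 3, measured 121, 124 and 143 FPKM in PBS, 77.0, 91.3, 91.0 and 82.6 in OVA/LPS/Vehicle and 115, 102, 116 and 115 in OVA/LPS/GGsTop and fell without overlap, with a log2 fold change of −0.59 ± 0.11 (adjusted p = 0.00451). Gsta3, a transferase of the alpha class, measured 42.0, 34.7 and 32.5 FPKM in PBS, 20.5, 28.3, 25.8 and 21.0 in OVA/LPS/Vehicle and 28.3, 26.8, 32.9 and 33.6 in OVA/LPS/GGsTop, with a log2 fold change of −0.59 ± 0.14 (adjusted p = 0.0102). These 3 fell in OVA/LPS/Vehicle with every library left out in turn and after GC correction.

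Other transferases that were lower were Gstp1, Gstt1 and Gstt3. Gstp1, the main pi class transferase, measured 63.2, 74.9 and 87.0 FPKM in PBS, 45.5, 56.6, 51.1 and 48.3 in OVA/LPS/Vehicle and 61.5, 66.5, 65.3 and 75.3 in OVA/LPS/GGsTop, with no overlap between OVA/LPS/Vehicle and PBS and a log2 fold change of −0.56 ± 0.13 (adjusted p = 0.00877). Gstt1, of the theta class, measured 43.6, 49.3 and 75.6 FPKM in PBS, 31.5, 35.7, 34.03 and 36.3 in OVA/LPS/Vehicle and 40.6, 41.9, 53.8 and 36.3 in OVA/LPS/GGsTop and had a log2 fold change of −0.65 ± 0.18 (adjusted p = 0.0172), with PBS 3 the highest library. Gstt3 of the same class measured 6.43, 5.78 and 6.03 FPKM in PBS, 4.08, 5.02, 4.21 and 4.94 in OVA/LPS/Vehicle and 5.41, 5.29, 6.38 and 5.10 in OVA/LPS/GGsTop, at a log2 fold change of −0.35 ± 0.10 (adjusted p = 0.0232). Reads of the mu, pi and theta class paralogs can be shared between near-identical copies, so the division of signal within these classes is uncertain.

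The transferases that were higher were led by Gsto1, an omega class enzyme with reductase activity, at 25.9, 78.4 and 22.5 FPKM in PBS, 93.3, 119.8, 95.4 and 119 in OVA/LPS/Vehicle and 86.04, 92.8, 46.3 and 179 in OVA/LPS/GGsTop. Every OVA/LPS/Vehicle value exceeded the PBS values, with a log2 fold change of 1.54 ± 0.45 (adjusted p = 0.0218), but PBS 2 lay far above the other PBS libraries. Gsto2, beside Gsto1 on chromosome 19, was low at 0.594, 0.439 and 0.274 FPKM in PBS, 1.153, 0.781, 0.748 and 1.25 in OVA/LPS/Vehicle and 0.792, 0.528, 0.567 and 1.29 in OVA/LPS/GGsTop, with a log2 fold change of 0.46 ± 0.17 (adjusted p = 0.0463). Gsta4, which conjugates products of lipid peroxidation, measured 46.0, 91.5 and 37.4 FPKM in PBS, 79.6, 113, 110.3 and 99.8 in OVA/LPS/Vehicle and 88.2, 97.3, 73.8 and 128 in OVA/LPS/GGsTop and overlapped between the groups, with a log2 fold change of 0.87 ± 0.28 (adjusted p = 0.0295). Gstm5 measured 3.06, 6.21 and 4.37 FPKM in PBS, 6.36, 6.53, 7.51 and 7.16 in OVA/LPS/Vehicle and 6.18, 6.90, 5.16 and 8.04 in OVA/LPS/GGsTop, with a log2 fold change of 0.55 ± 0.18 (adjusted p = 0.0354) and no overlap. Mgst1, a membrane-bound transferase, measured 104, 149 and 111 FPKM in PBS, 143, 195, 194 and 185 in OVA/LPS/Vehicle and 151, 161, 151 and 166 in OVA/LPS/GGsTop, overlapped between the groups, and had a log2 fold change of 0.56 ± 0.15 (adjusted p = 0.0157). The other 9 tested transferases (Gsta2, Gstm4, Gstm6, Gstm7, Gstp2, Gstt2, Gstk1, Gstz1 and Mgst3) had log2 fold changes from −0.24 to 0.16 and were not called.

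Markers of several cell types also differed between OVA/LPS/Vehicle and PBS. The 6 ciliated cell markers summed to 51.7 to 87.3 FPKM in PBS and 147 to 193 in OVA/LPS/Vehicle, and 6 of 6 were called higher. The 5 goblet cell markers summed to 2.80 to 27.998 and 423 to 1414 FPKM, with 5 of 5 higher. The 5 alveolar markers summed to 9450.1 to 14477 and 4997 to 8323 FPKM, with 1 of 5 lower, and the 4 red blood cell markers to 2788 to 7202 and 1833 to 2607 FPKM, with 2 of 4 lower. The 4 gland markers summed to 4.50 to 249.4 and 492 to 1343 FPKM, with 4 of 4 higher and a median log2 fold change of 4.17. Also called higher were 2 of 6 club cell, 1 of 4 cardiac muscle and 1 of 3 tested skeletal muscle markers. So were 1 of 2 thyroid and 1 of 4 eosinophil markers tested. The 4 cardiac muscle markers summed to 5.86, 1206 and 43.9 FPKM in PBS 1 to 3 and to 567 to 955 in OVA/LPS/Vehicle. PBS 2 thus lay above every OVA/LPS/Vehicle library for these markers. Of 6 macrophage markers 1 was higher and 1 lower, and 1 of 5 neutrophil markers was lower. Fold changes went both ways among markers of club cells (4 positive, 2 negative), eosinophils (2 and 2), macrophages (3 and 3) and neutrophils (4 and 1). The same held for alveolar epithelium (2 positive, 3 negative) and for T and B cells (1 and 4, with 0 called). The 4 smooth muscle and 3 cartilage markers tested all had negative fold changes, with 0 called. All 4 basal cell and 5 fat markers had positive fold changes (medians of 1.47 and 1.91), with 0 called. Over all genes tested, 15.9% were called higher and 22.1% lower. The part of these cell types in the changes of the glutathione genes was not tested.

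Of NRF2 and its partners and targets, Nfe2l2 was higher and Keap1 lower in OVA/LPS/Vehicle. Nfe2l2 measured 45.1, 39.8 and 33.5 FPKM in PBS, 49.9, 60.1, 58.1 and 59.3 in OVA/LPS/Vehicle and 49.8, 49.2, 54.0 and 54.2 in OVA/LPS/GGsTop, or 39.5 ± 5.82 in PBS (SD, n = 3) and 56.9 ± 4.68 in OVA/LPS/Vehicle (SD, n = 4), with no overlap and a log2 fold change of 0.52 ± 0.12 (adjusted p = 0.00801). Keap1, the inhibitor of NRF2, measured 12.6, 10.4 and 16.8 FPKM in PBS, 10.3, 8.83, 9.13 and 9.37 in OVA/LPS/Vehicle and 10.1, 11.2, 11.8 and 11.96 in OVA/LPS/GGsTop and had a log2 fold change of −0.43 ± 0.14 (adjusted p = 0.0297). It was −0.06 after GC correction (adjusted p = 0.623) and −0.26 without PBS 3 (adjusted p = 0.0928). None of Nqo1, Txnrd1, Srxn1 and Hmox1, which are known NRF2 targets, was called. Of 28 further partners and targets of NRF2, 2 were higher and 8 lower, against 15.9% and 22.1% of all genes. After GC correction 1 of the 28 was higher and 3 lower, against 8.13% and 13.3% of all genes. Nqo1, a quinone reductase, and Txnrd1, thioredoxin reductase, had log2 fold changes of −0.04 and −0.18 (adjusted p = 0.882 and 0.2). Srxn1, which restores oxidised peroxiredoxins, and Hmox1, heme oxygenase 1, had log2 fold changes of −0.32 and −0.60 (adjusted p = 0.0688 and 0.0785).

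The 20 calls differed in how far they held without single libraries or after GC correction, over 21 alternatives for most genes (20 for Slc7a11 and Gsto2, which were under the higher filter). Gsta3, Gstm1, Gstm2 and Nfe2l2 were called in all 21, with log2 fold changes without single libraries from −0.67 to −0.49, −0.92 to −0.77, −0.64 to −0.52 and 0.41 to 0.62. Chac2, Gpx3 and Gstp1 lost the call with GC correction alone (adjusted p = 0.066, 0.0804 and 0.108, with the smallest over the alternatives 6.96e-05, 0.000177 and 0.00132). GC correction also ended the calls of Gclm, Slc7a11, Chac1, Gpx8, Gstt1, Gstt3, Mgst1 and Keap1, and turned Slc7a11 to a log2 fold change of −0.10. Without PBS 3 the calls of Gclm, Gss, Slc7a11, Chac1, Gsta4, Gstm5, Gsto1, Gsto2, Gstt1, Mgst1 and Keap1 were lost, at log2 fold changes of 0.28, −0.22, 0.30, −0.37, 0.61, 0.54, 1.21, 0.38, −0.42, 0.51 and −0.26. With each library left out in turn, their highest adjusted p was 0.109, 0.118, 0.0836, 0.0581, 0.14, 0.138, 0.107, 0.161, 0.0562, 0.0566 and 0.0928 in that order. Leaving out PBS 1 ended those of Gss, Gsta4, Gstm5, Gsto1, Gsto2, Gstt3, Mgst1 and Keap1, and leaving out OVA/LPS/Vehicle 34, 56 or 78 left 12, 12 and 11 of the 20 genes called. Leaving out any other library (PBS 2, OVA/LPS/Vehicle 12 or an OVA/LPS/GGsTop library) left 17 to 20.

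GGsTop was then examined by comparing OVA/LPS/GGsTop with OVA/LPS/Vehicle, which by the labels differ in drug or vehicle. Their libraries also differed without overlap in the GC slope and the mitochondrial share given above, which cannot be told apart from the treatment. Of the 44 genes, 3 were higher and 0 lower, against 6.9% higher and 1.81% lower of all genes. The 3 were Prdx6, Gstm1 and Gstm2, 6.82% of the genes tested, against 8.71% of all genes in either direction. At an unadjusted p under 0.05 in limma, 8 of the 44 were higher and 2 lower, against 2784 and 1535 of all 14004 genes tested. Groups did not overlap for 7 genes on the higher side and 2 on the lower, against 17.3% and 12.4% of all genes. The median log2 fold change was 0.10 over the 44 genes and 0.03 over all genes. After GC correction 1 gene was higher (Gsta3), against 1.79% of all genes higher and 2.22% in either direction. With every library scaled to the same median, 0 of the 44 were called and all genes split into 344 higher and 354 lower, against 966 and 254 as deposited. Of the cell type markers, 0 of 6 ciliated and 0 of 5 goblet markers were called, while 2 of 4 gland markers were lower, with sums of 492 to 1343 FPKM in OVA/LPS/Vehicle and 42.8 to 912 in OVA/LPS/GGsTop. Of 2 thyroid markers tested 1 was lower, with sums of 0.256 to 309 and 0.183 to 1.44 FPKM over the 3 listed, and 1 of 6 club cell and 1 of 6 macrophage markers were higher. The 5 fat markers summed to 227 to 816 and 13.5 to 201 FPKM, with a median log2 fold change of −2.28 and 0 of 5 called (smallest adjusted p = 0.0619). The part of these cell types was not tested. This comparison shares the OVA/LPS/Vehicle libraries with the one against PBS, so its values are given beside those above.

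Prdx6, a peroxiredoxin that reduces lipid peroxides with glutathione, measured 201, 157 and 181 FPKM in PBS, 115, 166, 155 and 145 in OVA/LPS/Vehicle and 226, 182, 235 and 204 in OVA/LPS/GGsTop. All 4 OVA/LPS/GGsTop values lay above the OVA/LPS/Vehicle values, with means of 212 ± 23.7 and 145 ± 21.7 FPKM (SD, n = 4 each) and a log2 fold change of 0.55 ± 0.14 (adjusted p = 0.0396). Gstm1 averaged 329 ± 35.6 FPKM against 225 ± 23.6 (SD, n = 4 each) without overlap, at a log2 fold change of 0.54 ± 0.13 (adjusted p = 0.031). Gstm2 averaged 112 ± 6.96 FPKM against 85.5 ± 6.95 (SD, n = 4 each) without overlap, at 0.39 ± 0.10 (adjusted p = 0.0408). With PBS at 412 ± 48.5 and 129 ± 12.02 FPKM (SD, n = 3), every OVA/LPS/GGsTop value of Gstm1 and Gstm2 lay between the other groups. The log2 fold changes without single libraries ran from 0.44 to 0.62 for Prdx6, 0.48 to 0.60 for Gstm1 and 0.34 to 0.43 for Gstm2. Leaving out any of the 8 libraries of these 2 groups ended the calls of Prdx6 and Gstm2 (adjusted p up to 0.113 for both). Leaving out any of the 8 but OVA/LPS/GGsTop 4 ended that of Gstm1 (adjusted p up to 0.0907). In the same fits the calls over all genes fell from 966 higher and 254 lower to 20 to 866 and 4 to 186. Under the GC correction the log2 fold changes of Prdx6, Gstm2 and Gstm1 were 0.54, 0.32 and 0.41, with adjusted p of 0.0608, 0.0702 and 0.0748.

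**Figure D3:**
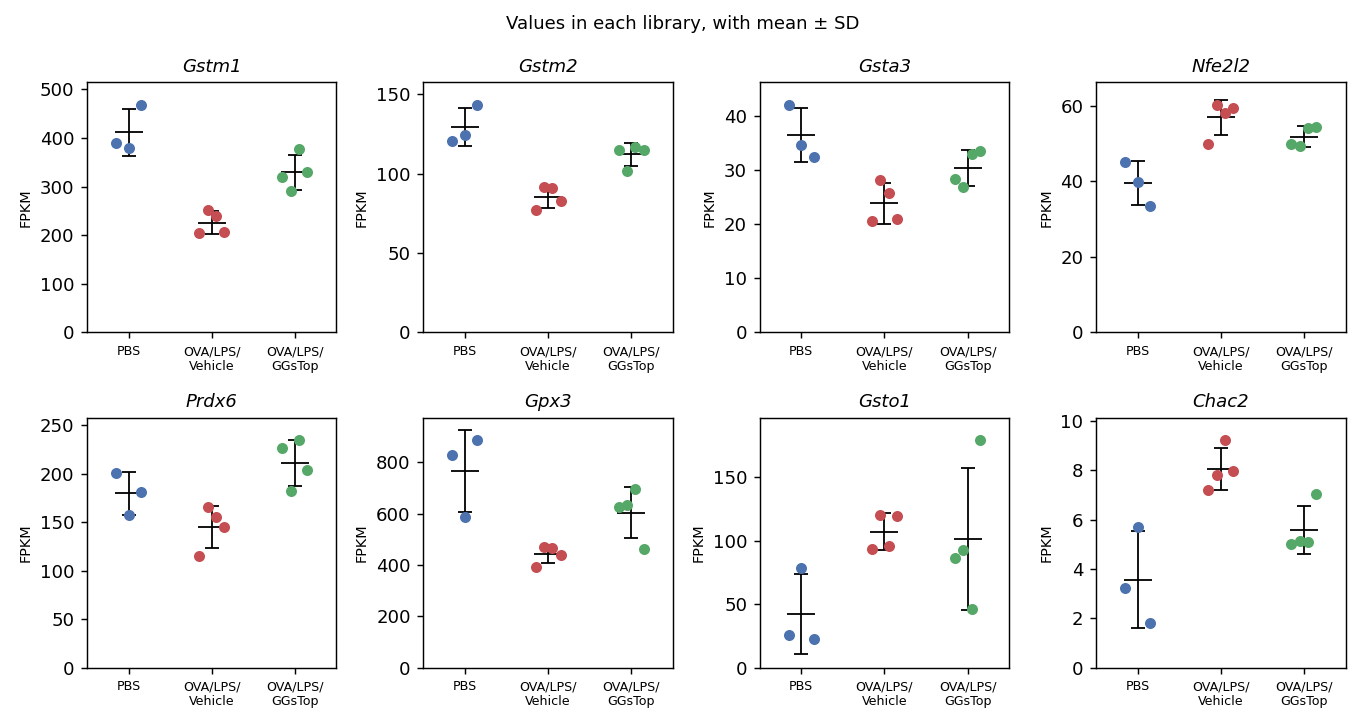
FPKM of 8 genes in each library (points) with the group mean and SD (bars), for PBS (3 libraries), OVA/LPS/Vehicle (4) and OVA/LPS/GGsTop (4). Gstm1 and Gstm2 show 3 separate groups with OVA/LPS/GGsTop in the middle, and the 4 OVA/LPS/GGsTop values of Gsto1 (86.04, 92.8, 46.3 and 179) span those of OVA/LPS/Vehicle.

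The other genes were not called in this comparison. Gsta3 had a log2 fold change of 0.34 ± 0.13 (adjusted p = 0.108), which the GC correction moved to 0.68 (adjusted p = 0.0324). Gstp1 and Gpx3 had log2 fold changes of 0.41 ± 0.12 (adjusted p = 0.0525) and 0.44 ± 0.17 (adjusted p = 0.119), and Gss one of 0.22 ± 0.09 (adjusted p = 0.115). Txnrd1, the gene of smallest p among NRF2 and its targets, measured 17.2, 16.8 and 15.4 FPKM in PBS, 14.5, 14.6, 14.3 and 14.2 in OVA/LPS/Vehicle and 15.5, 17.1, 14.7 and 20.2 in OVA/LPS/GGsTop and had a log2 fold change of 0.21 ± 0.10 (adjusted p = 0.183). The log2 fold changes of Gpx8 and Chac2 were −0.59 ± 0.21 (adjusted p = 0.0916) and −0.47 ± 0.22 (adjusted p = 0.17), with all OVA/LPS/GGsTop values below those of OVA/LPS/Vehicle in both genes. Glrx had one of −0.25 ± 0.11 (adjusted p = 0.154). Nfe2l2 itself had a log2 fold change of −0.13 ± 0.11 (adjusted p = 0.427) and Keap1 one of 0.24 ± 0.13 (adjusted p = 0.223). Without PBS 3, whose values enter only through the shared estimate of spread, Gstp1 was also called higher and Chac2 and Gpx8 lower (adjusted p = 0.0147, 0.0484 and 0.00392). That made 4 genes of the set higher and 2 lower. Calls over all genes also rose in that fit, from 966 higher and 254 lower to 2144 and 1447, so the added calls were not particular to these genes.

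Compared with PBS, OVA/LPS/GGsTop showed no called gene among the 44, against 2.06% higher and 0.821% lower of all genes (2.88% in either direction). After GC correction 0 were called again, against 3.01% higher, 1.34% lower and 4.35% in either direction. At an unadjusted p under 0.05 in limma, 6 were higher and 1 lower, against 1502 and 1371 of all 14004 genes tested. The median log2 fold change was 0.03 over the 44 genes and 0.01 over all genes. The 3 largest positive log2 fold changes were those of Gsto1 at 1.31 ± 0.45 (adjusted p = 0.14), Gsta4 at 0.80 ± 0.28 (adjusted p = 0.14), and Chac2 at 0.60 ± 0.24 (adjusted p = 0.181). Nfe2l2, with the smallest p among NRF2 and its targets, had a log2 fold change of 0.39 ± 0.12 (adjusted p = 0.09). Slc7a11, Mgst1 and Nfe2l2 did not overlap between the groups on the higher side, and Gstm1 and Gstm2 did not on the lower side, or 3 and 2 of 44 genes against 7.22% and 7.54% of all genes. Without PBS 2, 5 genes were called higher (Chac2, Gsta4, Gstm5, Gsto1 and Mgst1, with log2 fold changes of 0.92, 1.17, 0.68, 1.86 and 0.54 and adjusted p of 0.0128, 0.0103, 0.0263, 0.0154 and 0.0399), against 955 of all genes. Without OVA/LPS/GGsTop 3, Gsto1 alone was called higher (adjusted p = 0.0489), against 549 of all genes. With the replicate number as a block, in a fit of PBS 1 to 3 and OVA/LPS/GGsTop 1 to 3 only, 0 of the 44 genes were called. Over all genes this fit called 46 higher and 16 lower. The counts were 288 and 115 in the main fit, and 30 and 9 with all libraries of these 2 groups only and no block.

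Gstm3, a mu class transferase, was the gene under the filter. It was listed at 0.203, 0.640 and 0.164 FPKM in PBS, 0, 0.145, 0.144 and 0.137 in OVA/LPS/Vehicle and 0.456, 0.315, 0.242 and 0.155 in OVA/LPS/GGsTop, which correspond to between 0 and 13 fragments. OVA/LPS/GGsTop 4 held 3 fragments, as did 3 of the 4 OVA/LPS/Vehicle libraries, so no difference between the groups is read from these values.

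Other genes of the same pathways were taken from a list of 74, of which 71 were tested. In OVA/LPS/Vehicle against PBS, 8 were higher and 14 lower, against 15.9% and 22.1% of all genes, and 6 and 9 after GC correction, against 8.13% and 13.3%. The lower genes of smallest p were Slc48a1, a heme transporter (−0.67, adjusted p = 0.00416), Sod3, the extracellular superoxide dismutase (−0.94, adjusted p = 0.0061), Sqstm1, an autophagy receptor that binds KEAP1 (−0.57, adjusted p = 0.007), Ggt5, a γ-glutamyl transferase (−0.65, adjusted p = 0.00801) and Osgin1 (−0.82, adjusted p = 0.00834). The higher genes of smallest p were the peroxiredoxins Prdx1, Prdx4 and Prdx3 (0.66, 0.68 and 0.59, adjusted p = 0.0123, 0.0149 and 0.0225), Glrx3 (0.41, adjusted p = 0.0222) and the aminopeptidase Lap3 (0.55, adjusted p = 0.0282), all as log2 fold changes. Between the GGsTop and vehicle groups 4 of 71 were higher and 0 lower, against 6.9% and 1.81% of all genes, namely Osgin1 (0.80, adjusted p = 0.0242), the NRF2 partner Mafg (0.56, adjusted p = 0.0283), the epoxide hydrolase Ephx1 (0.46, adjusted p = 0.0383) and Sesn2 (0.54, adjusted p = 0.0411), and none was called after GC correction. Against PBS, 1 of 71 was lower in OVA/LPS/GGsTop, the growth factor Hbegf (−0.88, adjusted p = 0.0333), and 0 were higher. Of all genes, 0.821% were lower and 2.06% higher in that comparison.

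Transcript GC content moved with the direction of these changes. The genes called higher in OVA/LPS/Vehicle had a median GC content of 46.1% and those called lower one of 54.3%, against 50.9% over the glutathione and NRF2 genes and 49.9% over all genes tested. Across the 44 genes, which are not independent replicates, Pearson's r between GC content and log2 fold change was −0.48 for OVA/LPS/Vehicle against PBS and 0.46 for GGsTop relative to vehicle, and −0.02 and −0.20 after GC correction. Gsta3, at 40.4% GC, and Chac2, at 37.6%, lay at the low end, and their log2 fold changes against PBS moved from −0.59 to −1.07 and from 1.07 to 0.49. The part of GC content in the differences between groups was not tested.

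**Figure D4:**
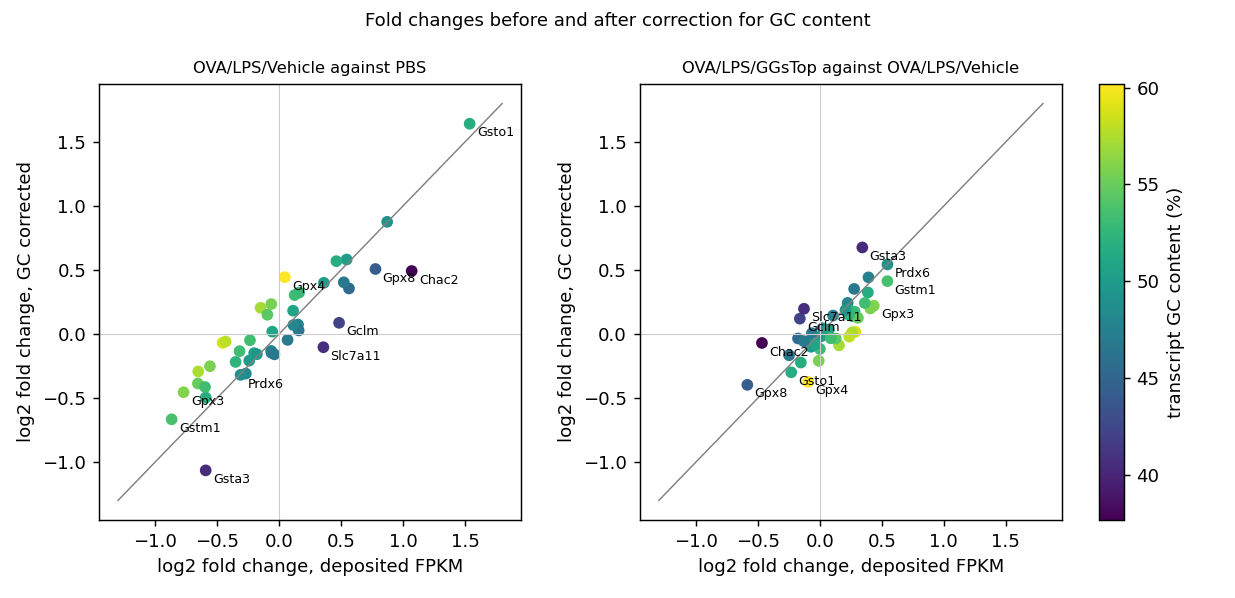
Log2 fold changes of the 44 genes as deposited (horizontal) and after correction for GC content (vertical), coloured by transcript GC content, with the line of equality. For OVA/LPS/Vehicle against PBS, Gsta3 moves from −0.59 to −1.07 and Slc7a11 from 0.36 to −0.10, while Gsto1 stays close to the line.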

How the data were processed

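The submitters' processing notes name cutadapt 1.15, HISAT2 2.0.5, HTSeq 0.9.1 and build mm39. The authors deposited FPKM values per gene for 11 libraries (4 OVA/LPS/GGsTop, 4 OVA/LPS/Vehicle and 3 PBS). FPKM multiplied by exon length in GENCODE M21 (GRCm38) gave whole fragments (within 0.02) for 97.5 to 97.8% of values, so depth is implied, and GRCm38 lengths were used. Symbols came from GENCODE M21 (21846 of 21899 genes matched, and 27 shared symbols were dropped). Log2(FPKM + 1) was tested with limma 3.58.1 (R 4.3.3), with a mean-variance trend, all libraries in 1 fit, two-sided, over 14004 genes averaging 0.5 FPKM or more, and p-values were adjusted by Benjamini-Hochberg, called under 0.05. The fold change understates the change of low genes. For GC correction, each gene's log2 deviation from its mean over all libraries was modelled on GC content by a spline (5 degrees of freedom). The spline fitted in each library was subtracted, which also removes differences between groups that follow GC content. The code was tested on simulated data. Alternatives were other pseudocounts, filters, scalings, fits and each library left out. Genes, lists and naming rule (called genes, the most abundant gene and that of smallest p per role) were chosen with earlier results of these data known.

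Same-numbered PBS and OVA/LPS/GGsTop libraries deviated together (correlations of 0.367, 0.427 and 0.428), although PBS 1 matched OVA/LPS/GGsTop 3 (0.457) and PBS 2 OVA/LPS/GGsTop 4 (0.637) more closely. The signs did not follow the numbers alone. PBS 1 and PBS 3 correlated positively with OVA/LPS/GGsTop 1 and 3 (0.223 to 0.457) and negatively with 2 and 4 (−0.431 to −0.223). PBS 2 did the reverse (0.427 and 0.637 with 2 and 4, −0.445 and −0.693 with 1 and 3). The pairing comes from the labels' numbers only.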

Additional observations from a re-analysis of the deposited data

Results flagged for a closer look

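Single libraries stood apart in 6 of the 90 groups of 4 libraries examined by Dixon's test, where chance flags about 1 in 20. In OVA/LPS/GGsTop, library 4 was highest for Gclm at 11.95 FPKM, with the others at 9.30 to 9.496, and for Chac2 at 7.04 FPKM, with the others at 4.9997 to 5.13. Library 2 of the same group was lowest for Gstm2 at 101.6 FPKM, with the others at 114.9 to 116.4. In OVA/LPS/Vehicle, library 56 was highest for Ggct at 1.21 FPKM, with the others at 0.664 to 0.743, and for Mgst3 at 39.8 FPKM, with the others at 34.8 to 35.5. Gstm3 was listed at 0 in OVA/LPS/Vehicle 12 and at 0.137 to 0.145 FPKM in the others.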

How the results depend on the processing

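Over 2848 recomputed values, 2683 kept their side of the threshold, 107 calls were lost, 57 were gained and 1 called value, that of Slc7a11 against PBS, changed sign and lost its call after GC correction (−0.10). Given as higher and lower in OVA/LPS/Vehicle against PBS, main counts were 10 and 10 genes of the glutathione set and 2231 and 3096 of all genes. With the same FPKM total they were 4 and 16, and 1232 and 4570, as this scaling moved the median log2 fold change of all genes from −0.01 to −0.15. With GC correction they were 6 and 4, and 1138 and 1869, and with array weights 3443 of all genes were higher. For GGsTop relative to vehicle, main counts were 3 and 0, and 966 and 254. They were 6 higher, and 2026 and 155, with the same total (median of all genes 0.11 against 0.03), 0 higher, and 344 and 354, with the same median, 8 and 4, and 3232 and 1982, with array weights, 2 lower, and 2119 and 1406, with 2 groups only, and 1 higher, and 251 and 60, with GC correction. For OVA/LPS/GGsTop against PBS, main counts were 0 and 0, and 288 and 115. Over all genes they were 147 and 61 with no filter, 250 and 243 with the same total, 1379 and 1178 with array weights (7 and 1 of the set), 30 and 9 with 2 groups only and 188 lower with GC correction. The replicate block, fitted on the same-numbered libraries of these 2 groups only, gave 46 and 16 of all genes, and 299 and 118 with GC correction. It called 0 of the set both times, as did the main fit, so it had no call of the set to end. Leaving out single libraries gave 3 to 11 higher and 6 to 11 lower of the set (1175 to 3045 and 1889 to 3395 of all genes) in the first comparison, 0 to 4 and 0 to 2 (20 to 2144 and 4 to 1447) in the second, and 0 to 5 and 0 to 0 (21 to 955 and 8 to 642) in the third. The causes of these shifts were not tested. With a shallow gene such as Gstm3, at 0 to 13 fragments, depth limits what could be seen.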
